A study of Capra hircus with 3 samples.

Results

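The genes described here mark the basal layer of the mammary epithelium and the contractile cells that eject milk. A total of 10 genes were listed by symbol: KRT5, KRT14, KRT17 and TP63 of the basal layer, ACTA2, MYH11, MYLK, CNN1 and TAGLN of the contractile apparatus, and OXTR, the oxytocin receptor. Rows were selected by the goat NCBI gene ID of each symbol, and 9 of the 10 genes were found among 13023 protein-coding genes with values. KRT17 had no entry in the gene table and was not analysed here. Each of the 9 genes had a single row. Mammary gland tissue was taken surgically from healthy Laoshan dairy goats, aged 4 years, at 10 days (early), 90 days (peak) and 210 days (late) after parturition. No treatment other than the anaesthesia for sampling is described, and RNA of 5 goats was mixed in equal amounts into 1 library per stage. The paper describes 5 goats in all, with specimens of each stage, so the pools appear to be of the same animals. The values are FPKM, read pairs normalized to transcript length and to sequencing depth, so that levels of different genes can be set side by side per length. With 1 pooled library per stage there is no spread between replicates, no test and no p-value, and the read number behind each FPKM is unknown.

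Mammary alveoli are built of an inner layer of luminal cells, which make milk, and an outer basal layer of myoepithelial cells, which rest on the basement membrane. Myoepithelial cells carry basal keratins like skin and a contractile apparatus like smooth muscle. When suckling or milking releases oxytocin from the pituitary, its receptor on these cells acts through a G protein and phospholipase C to release calcium, this calcium switches on myosin light chain kinase, and the cells squeeze milk into the ducts. The contractile genes are also expressed by the smooth muscle of blood vessels. In bulk tissue, fewer cells of a type and less RNA per cell cannot be told apart.

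For late against peak lactation, 128 of 148 matched lncRNA genes had opposite signs in the deposited values and the tables of the study, and 20 had the same. The paper also counted fewer changed mRNA transcripts between early and peak than between early and late lactation, by its own criteria. By label, 17.7% and 8.71% of protein-coding genes were past 2-fold in these comparisons, and exchanged labels would give the order of the paper. Which of the peak and late libraries holds which stage is uncertain. The libraries are therefore called early-labelled, peak-labelled and late-labelled, and statements on the last 2 change places if their labels do. The peak-labelled library stood apart from the others. A difference of 2-fold or more from the late-labelled library was found for 25.9% of protein-coding genes, against 8.71% between early-labelled and late-labelled. The deposited sums were 918441 to 1014254 FPKM, and 1 locus held 46.0% of the sum in the peak-labelled library and 29.9% to 30.0% in the others. Genes of 1 FPKM or more in each library of a pair had median log2 ratios of -0.03 for peak over early, -0.01 for late over early and 0.03 for late over peak. The FPKM of protein-coding genes, in contrast, summed to 478221 in the early-labelled, 275836 in the peak-labelled and 421182 in the late-labelled library, so a scaling on these sums raises each level in the peak-labelled library relative to the others. The median of peak over early was 0.75 under that scaling and that of late over peak -0.57. Another scaling took levels per FPKM of the luminal keratins KRT8 and KRT18, and it moved these medians to -0.65 and 0.41. Differences are given on the deposited scale unless another is named, and shares of all genes past a fold were counted on the deposited scale only.

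In the FPKM as deposited, the 5 contractile genes lay within 1.60-fold across the 3 libraries, while OXTR spanned 4.74-fold. With libraries scaled to equal sums over protein-coding genes, log2 ratios of peak over early ranged up to 0.86 for the contractile genes (TAGLN) and OXTR had -0.95. The 9 genes summed to 466 FPKM in the early-labelled library, 465 FPKM in the peak-labelled and 486 FPKM in the late-labelled. On the deposited scale, OXTR alone of the 9 differed at least 2-fold between any of the libraries, and it was lowest in the peak-labelled one. KRT5 and TP63 were highest in the peak-labelled library and lowest in the late-labelled, by less than 2-fold, although TP63 differed little between the late-labelled and early-labelled libraries. MYH11 and CNN1 ran the other way on the deposited scale, lowest in the peak-labelled and highest in the late-labelled library, also by less than 2-fold.

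**Figure D1:**
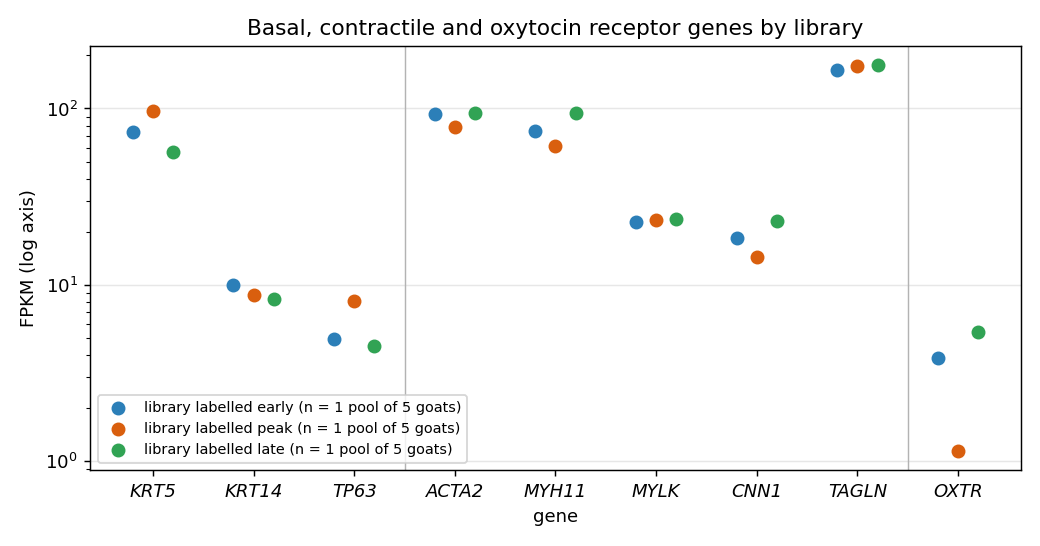
FPKM on a log axis of the 9 genes in the 3 libraries, with 1 point per library (1 pool of 5 goats each) and vertical lines between the basal genes, the contractile genes and OXTR. TAGLN lay at 165 to 176 FPKM in every library, whereas OXTR was at 1.14 FPKM in the peak-labelled library and at 3.83 and 5.43 FPKM in the others.

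KRT5, the type II keratin of basal epithelial cells, had 73.2 FPKM in the early-labelled library, 96.7 FPKM in the peak-labelled and 56.6 FPKM in the late-labelled. It was 1.32-fold higher in the peak-labelled than in the early-labelled library (log2 ratio 0.40) and 1.71-fold higher there than in the late-labelled (log2 ratio of late over peak -0.77). When levels were taken per FPKM of the luminal keratins KRT8 and KRT18, the log2 ratio of peak over early was -0.23 for KRT5. That scaling moved the median of all genes to -0.65, so KRT5 stayed above the middle gene. With libraries scaled to equal sums over protein-coding genes, the KRT5 ratio of peak over early was 1.20 and that of late over peak was -1.38, both past 2-fold. KRT5 is listed on scaffold NW_005102584.1 from 31851 to 38196.

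KRT14, the type I keratin that pairs with KRT5 in filaments, had 10.0, 8.75 and 8.34 FPKM in the early-labelled, peak-labelled and late-labelled libraries. Its highest level was 1.20 times its lowest. The small differences of KRT14 turned with the scaling: the log2 ratio of peak over early was -0.20 as deposited and 0.60 at equal protein-coding sums, and that of late over peak was -0.07 as deposited and 0.32 per FPKM of KRT8 and KRT18. The medians of all genes in these 2 rescaled comparisons were 0.75 and 0.41. KRT5 stood 7.30-fold above its partner in the early-labelled library, 11.1-fold in the peak-labelled and 6.78-fold in the late-labelled. KRT14 lies on scaffold NW_005100886.1 from 17492465 to 17497008, in a cluster of related type I keratin genes, and how reads shared between related genes were assigned is not given in the sources used here, so its level is uncertain. KRT19, a type I keratin of luminal cells listed 58599 nt away on that scaffold, had 439, 413 and 364 FPKM in the same order.

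TP63, a transcription factor that maintains basal epithelial cells, had 4.97 FPKM in the early-labelled, 8.05 FPKM in the peak-labelled and 4.52 FPKM in the late-labelled library. It was 1.62-fold higher in the peak-labelled than in the early-labelled library (log2 ratio 0.70) and 1.78-fold higher there than in the late-labelled. The log2 ratio of late over early was -0.14, and 0.05 with libraries scaled to equal sums over protein-coding genes. Of the genes at or above 1 FPKM in each of these libraries, 87.1% had a lower ratio of peak over early than TP63. For KRT5 this share was 77.6%, and for KRT14 it was 36.3%. Per FPKM of the luminal keratins, the log2 ratio of peak over early for TP63 was 0.06, beside a median of -0.65 over all genes. At equal protein-coding sums the TP63 ratio was 1.49 and that of late over peak -1.44. TP63 is listed on scaffold NW_005100603.1 from 12515011 to 12782678.

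TAGLN, which encodes the actin-binding protein transgelin, was the most abundant of the 9 genes in each library, with 165, 173 and 176 FPKM in the early-labelled, peak-labelled and late-labelled libraries. Its highest level was 1.07 times its lowest, and it made 35.4% to 37.2% of the summed FPKM of the 9 genes. MYLK, the kinase of the myosin light chain, had 22.7, 23.3 and 23.7 FPKM, a highest level 1.05 times the lowest, which was the narrowest range of the 9 genes on the deposited scale. At equal protein-coding sums the log2 ratios of peak over early were 0.86 for TAGLN and 0.83 for MYLK, wider than any ratio of MYH11 or CNN1 under that scaling. Per FPKM of KRT8 and KRT18 they were -0.57 and -0.60, beside a median of -0.65 over all genes. TAGLN is listed on scaffold NW_005100821.1 from 11035527 to 11065438, a span it shares with PCSK7 at 7.67 to 14.1 FPKM. MYLK is listed on scaffold NW_005100603.1 from 3135958 to 3415917.

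ACTA2, the smooth muscle actin, had 93.3 FPKM in the early-labelled, 78.5 FPKM in the peak-labelled and 93.8 FPKM in the late-labelled library, a highest level 1.19 times the lowest. MYH11, the smooth muscle myosin heavy chain, had 74.3, 61.5 and 94.9 FPKM in this order. It was 1.54-fold higher in the late-labelled than in the peak-labelled library (log2 ratio 0.62) and 1.28-fold higher than in the early-labelled. CNN1, a calponin that binds actin and tropomyosin, had 18.6, 14.4 and 23.1 FPKM and was 1.60-fold higher in the late-labelled than in the peak-labelled library (log2 ratio 0.68). All 3 genes were lowest in the peak-labelled library, at log2 ratios of peak over early of -0.25, -0.27 and -0.36, which became 0.54, 0.52 and 0.43 when libraries were scaled to equal sums over protein-coding genes, a scaling that moved the median of all genes from -0.03 to 0.75. Relative to that median they remained below the middle gene. Under the same scaling the log2 ratios of late over peak were -0.35 for ACTA2, 0.01 for MYH11 and 0.07 for CNN1, so the last 2 hardly differed between these libraries. Per FPKM of KRT8 and KRT18 they were 0.65, 1.02 and 1.07, beside a median of 0.41 over all genes.

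The span of MYH11, on scaffold NW_005100934.1 from 11620129 to 11777767, is also listed for NDE1, which had 3.96, 5.20 and 3.27 FPKM and so at most 5.20 FPKM beside at least 61.5 FPKM of MYH11. Whether the strand of the reads was used in counting is not given in the sources used here. ACTA2 is listed on scaffold NW_005100944.1 from 275077 to 292911 and CNN1 on scaffold NW_005100713.1 from 2039212 to 2047070. No other entry overlapped either span, nor those of KRT5, KRT14, TP63, MYLK and OXTR.

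OXTR, the receptor through which oxytocin triggers milk ejection, had 3.83 FPKM in the early-labelled, 1.14 FPKM in the peak-labelled and 5.43 FPKM in the late-labelled library. The peak-labelled library was low, and the others lay within 1.42-fold of each other. OXTR was 3.35-fold lower in the peak-labelled than in the early-labelled library (log2 ratio -1.74) and 4.74-fold higher in the late-labelled than in the peak-labelled (log2 ratio 2.24). Of 11479 genes at or above 1 FPKM in each of the libraries compared, 1.28% had a lower ratio of peak over early, and of 11200 such genes 99.4% had a lower ratio of late over peak. The receptor was the least abundant of the 9 genes in the early-labelled and peak-labelled libraries, and TP63 was in the late-labelled. It is listed on scaffold NW_005100910.1 from 15527318 to 15541419.

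Its low level makes the OXTR ratio depend on how low values are treated. With 1 FPKM added to both libraries, the log2 ratio was -1.17 for peak over early and 1.58 for late over peak, both still past 2-fold. With libraries scaled to equal sums over protein-coding genes, the ratio of peak over early was -0.95 and no longer past 2-fold, while that of late over peak was 1.63. Centred on the median of all genes, the ratios were -1.72 and 2.21.

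Set against the contractile genes of the same library, OXTR was low only in the peak-labelled one. The summed FPKM of ACTA2, MYH11, MYLK, CNN1 and TAGLN was 374, 351 and 411 in the early-labelled, peak-labelled and late-labelled libraries. OXTR amounted to 1.02%, 0.326% and 1.32% of this sum, and to 4.10%, 1.46% and 5.78% of the FPKM of ACTA2. These shares do not depend on how the libraries are scaled. The level of KRT5 also moved against the contractile genes, since their sum was 5.11 times KRT5 in the early-labelled library, 3.63 times in the peak-labelled and 7.27 times in the late-labelled. KRT8, a keratin of luminal cells, was 1.72, 2.02 and 2.72 times KRT5 in the same order.

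Between the early-labelled and peak-labelled libraries, 1 of the 9 genes (OXTR) differed at least 2-fold, beside 17.7% of all 13020 protein-coding genes above 0 in either library. The gene was higher in the early-labelled library, as were 6.80% of all genes, and 0 of 9 were higher in the peak-labelled library, beside 10.9% of all genes. At a fold of 1.5, TP63 joined OXTR, giving 2 of 9 genes beside 36.8% of all genes. The median log2 ratio of the 9 genes was -0.20. With 9 genes, these counts are too small to set the genes apart from all genes.

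Between the early-labelled and late-labelled libraries, 0 of the 9 genes differed at least 2-fold, beside 8.71% of all 13004 genes, of which 1.97% were higher in the late-labelled and 6.74% higher in the early-labelled library. No gene of the set reached 1.5-fold either (0 of 9), beside 17.8% of all genes. The median log2 ratio of the set was 0.07, and single genes ranged from -0.37 for KRT5 to 0.50 for OXTR. MYH11 and CNN1 had log2 ratios of 0.35 and 0.32, while ACTA2 stood at 0.01.

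Between the peak-labelled and late-labelled libraries, 1 of the 9 genes differed at least 2-fold, beside 25.9% of all 13015 genes. OXTR was higher in the late-labelled library, as were 8.55% of all genes, and 0 of 9 were higher in the peak-labelled library, beside 17.4% of all genes. At a fold of 1.5, the number was 5 of 9, with KRT5 and TP63 higher in the peak-labelled library and MYH11, CNN1 and OXTR higher in the late-labelled, beside 44.0% of all genes. The median log2 ratio of the set was 0.03. OXTR was the 1 gene of the 9 at least 2-fold below both other libraries in the peak-labelled one, beside 5.25% of all 13023 genes.

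**Figure D2:**
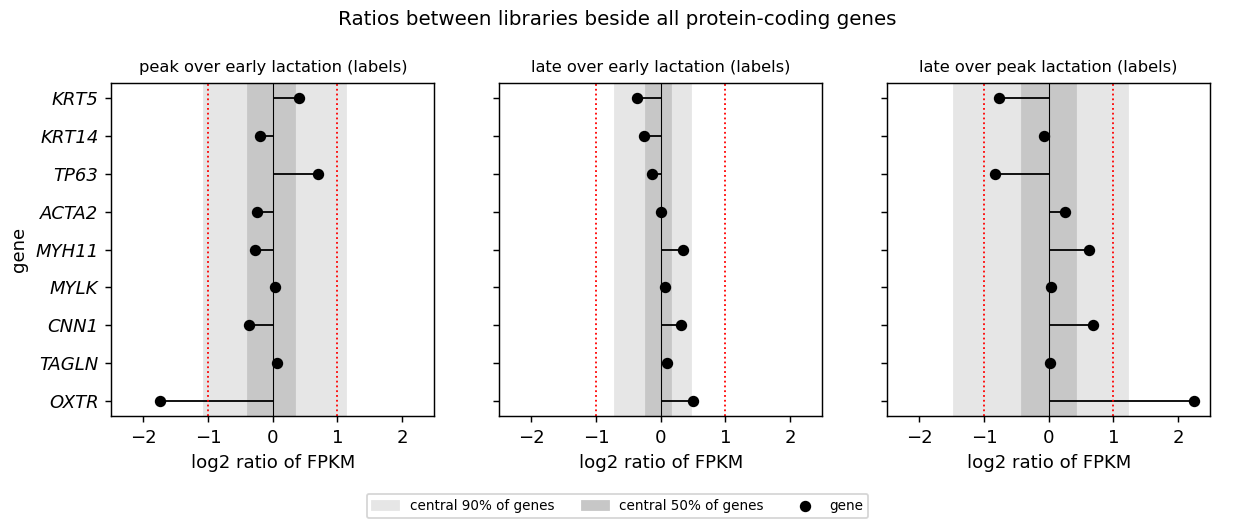
Log2 ratios of FPKM of the 9 genes in the 3 comparisons, with the central 50% and 90% of protein-coding genes of 1 FPKM or more in each library shaded and 2-fold marked by dotted lines. OXTR lay outside the central 90% in all 3 comparisons, at -1.74, 0.50 and 2.24, and the other 8 genes lay inside it.

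The wider basal list held genes of the basement membrane and of its anchoring, and also other genes of basal cells such as CDH3, NGFR, TRIM29 and SNAI2. Of its 16 genes, 15 had values, and its counts are not those of basement membrane genes alone. Between the early-labelled and peak-labelled libraries, 3 of 15 were at least 2-fold higher in the peak-labelled library and 0 lower, beside 10.9% and 6.80% of all genes. These numbers were 8 and 0 at equal protein-coding sums, and 1 and 1 per FPKM of KRT8 and KRT18. Shares of all genes were not counted under these scalings, which moved the median of all genes to 0.75 and -0.65. The rescaled counts are therefore no result about basal genes. With 1 FPKM added to both libraries, 1 gene was past 2-fold. ITGB4, the integrin chain of hemidesmosomes, had 7.30, 16.9 and 7.16 FPKM in the early-labelled, peak-labelled and late-labelled libraries, a log2 ratio of peak over early of 1.21. CDH3 (P-cadherin) had 0.726, 1.83 and 0.964 FPKM and NGFR, the nerve growth factor receptor of basal cells, had 0.335, 1.19 and 0.402 FPKM, both named after their values were seen and below 1 FPKM in the early-labelled library. ITGA6, the integrin chain that pairs with ITGB4, differed in direction, with 85.0, 49.5 and 94.8 FPKM.

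Between the late-labelled and peak-labelled libraries, 3 of the 15 basal genes were at least 2-fold lower in the late-labelled library and 0 higher, beside 17.4% and 8.55% of all genes. At equal protein-coding sums 7 were lower and 0 higher, and per FPKM of KRT8 and KRT18 1 was lower and 1 higher, without shares of all genes to set beside them. The 3 genes on the deposited scale were ITGB4 at a log2 ratio of -1.24, NGFR at -1.57 and TRIM29, an epithelial gene of the basal layer, at -1.11. TRIM29 had 3.46, 6.001 and 2.78 FPKM in the early-labelled, peak-labelled and late-labelled libraries. The median log2 ratio of the list was 0.29 for peak over early and -0.37 for late over peak, beside -0.03 and 0.03 over all genes. Between early-labelled and late-labelled, 0 of the 15 differed at least 2-fold, beside 8.71% of all genes, and the median was 0.11. ITGB1, the most abundant of the list, had 109, 94.99 and 120 FPKM.

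Of the 20 other genes of the contractile apparatus, 19 had values, and most stayed within 2-fold. Between the early-labelled and peak-labelled libraries, 1 of 19 was higher in the peak-labelled and 0 lower, beside 10.9% and 6.80% of all genes. At equal protein-coding sums 7 were higher and 0 lower, and per FPKM of KRT8 and KRT18 1 was higher and 2 were lower. Shares of all genes were not counted under these scalings. The gene on the deposited scale was DES, the intermediate filament protein desmin of muscle cells, with 5.50, 17.8 and 10.3 FPKM in the early-labelled, peak-labelled and late-labelled libraries. Between early-labelled and late-labelled, PPP1R14A, an inhibitor of myosin phosphatase, was the 1 gene of 19 higher in the late-labelled library (1.97% of all genes), with 8.07, 15.1 and 17.6 FPKM. ACTG2, a second smooth muscle actin, had 14.6, 7.30 and 17.9 FPKM and was the 1 gene higher in the late-labelled than in the peak-labelled library (8.55% of all genes), at a log2 ratio of 1.29. At equal protein-coding sums 0 of the list were higher there and 3 were lower, again without a share of all genes. MYOCD, a coactivator of smooth muscle genes, had 0.471 and 0.721 FPKM and is listed at 0 in the late-labelled library, and this was the 1 lower gene of the list in both comparisons with that library, beside 6.74% and 17.4% of all genes. It lies below 1 FPKM and was named after its values were seen. The medians of the list were 0.12, 0.17 and 0.10 for peak over early, late over early and late over peak. The last 2 leave out MYOCD, for which no ratio was taken with its value of 0, and would be lower with it. FLNA, which encodes filamin A, and CALD1, which encodes caldesmon, were the most abundant, with 89.9, 103 and 129 FPKM and 66.04, 53.6 and 67.3 FPKM.

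Of the 20 other genes on the path from the receptor to calcium and myosin, 19 had values. Between the early-labelled and peak-labelled libraries, 1 of 19 was lower in the peak-labelled library and 0 higher, beside 6.80% and 10.9% of all genes. At equal protein-coding sums 0 were lower and 8 higher, and per FPKM of KRT8 and KRT18 2 were lower and 0 higher. Shares of all genes were not counted under these scalings. The gene on the deposited scale, no longer past 2-fold at equal sums, was ORAI1, the plasma membrane channel that refills calcium stores, with 46.7, 19.0 and 44.0 FPKM in the early-labelled, peak-labelled and late-labelled libraries, at a log2 ratio of -1.30. STIM1, the store sensor that opens ORAI1, differed in direction, with 2.12, 3.42 and 1.71 FPKM. Between early-labelled and late-labelled, RGS2, which shortens Gq signals, was the 1 gene lower in the late-labelled library (6.74% of all genes), with 14.4, 14.95 and 5.16 FPKM.

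Between the peak-labelled and late-labelled libraries, 5 of the 19 were lower in the late-labelled library, and ORAI1 was the 1 higher gene at a log2 ratio of 1.21, beside 17.4% and 8.55% of all genes. At equal protein-coding sums 6 were lower and 0 higher, so that ORAI1 was no longer past 2-fold. Per FPKM of KRT8 and KRT18 3 were lower and 3 higher, and no share of all genes was counted for either scaling. The lower genes on the deposited scale were RGS2 at a log2 ratio of -1.54, ITPR1, a calcium release channel of the endoplasmic reticulum, at -1.53, PLCB2, a phospholipase C, at -1.44, CACNA1C, a calcium channel of smooth muscle, at -1.36 and STIM1 just past 2-fold, of which the last 2 were named after their values were seen. ITPR2, the more abundant release channel and likewise named after its values were seen, had 43.7, 36.3 and 43.4 FPKM. LNPEP, the aminopeptidase that degrades oxytocin, had 88.9, 63.0 and 108 FPKM, which was 23.2, 55.1 and 19.8 times the FPKM of OXTR in the same library. The median of the list was 0.10, 0.09 and 0.07 in the 3 comparisons.

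**Figure D3:**
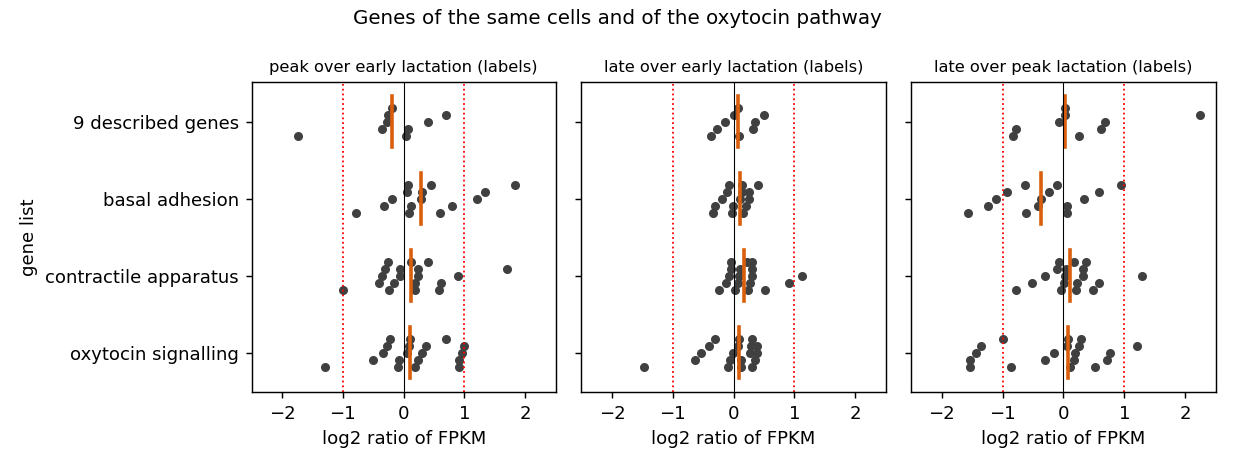
Log2 ratios of FPKM of the 9 genes and of 3 wider lists (15, 19 and 19 genes with values) in the 3 comparisons, with 1 point per gene, the median of each list as an orange bar and 2-fold as dotted lines; MYOCD, listed at 0 in the late-labelled library, is not drawn where that library enters. The median of the basal adhesion list was 0.29 for peak over early and -0.37 for late over peak, whereas those of the contractile and oxytocin lists lay between 0.07 and 0.17 in every comparison. Where MYOCD is not drawn, the contractile median leaves it out.

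Markers of the other cells in the tissue were present in each library. All 10 luminal markers had values, and their sum was 1703, 1194 and 1625 FPKM in the early-labelled, peak-labelled and late-labelled libraries. Of these, 6 were higher in the peak-labelled than in the early-labelled library, and the median log2 ratio of the list was 0.24. The lower sum in the peak-labelled library rests on ELF5, the marker of the highest mean FPKM. ELF5, a transcription factor of milk-producing cells, was low in the peak-labelled library, as OXTR was, with 879, 244 and 875 FPKM, whereas KRT8 had 126, 196 and 154 FPKM and KRT7, another luminal keratin, 76.6, 157 and 48.6 FPKM. FOXA1, a transcription factor of hormone-sensing luminal cells, had 1.57, 2.79 and 0.523 FPKM and was named after its values were seen. Of the markers of vascular mural cells, which share the contractile genes, all 10 had values, and their sum was 66.8, 58.1 and 87.9 FPKM. Of the 10, 5 were higher in the peak-labelled than in the early-labelled library, and the lower sum there rests on RGS5. RGS5, a pericyte marker, had 24.0, 10.0 and 35.5 FPKM and HIGD1B had 4.27, 1.70 and 5.59 FPKM. These 2 of 10 were at least 2-fold below the other libraries in the peak-labelled one, beside 5.25% of all genes. PDGFRB, the platelet-derived growth factor receptor of these cells, differed in direction, with 16.6, 24.6 and 19.2 FPKM. What part mural cells had in the levels of the contractile genes and of OXTR was not tested.

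The 7 fibroblast markers summed to 681, 570 and 553 FPKM, and 5 of 6 endothelial markers to 123, 111 and 135 FPKM. Among the fibroblast markers, DCN (decorin) had 131, 254 and 106 FPKM and PDGFRA had 13.7, 28.03 and 11.3 FPKM, whereas the collagen genes COL1A2 and COL3A1 were lowest in the peak-labelled library, with 138, 65.8 and 106 FPKM and 255, 123 and 220 FPKM. Of 7 epidermal markers, KRT10 was the 1 with values, at 0.843 to 1.58 FPKM beside 56.6 to 96.7 FPKM of KRT5, and of 6 markers of skeletal muscle TNNT3 was the 1 with values, at 0.935 to 1.37 FPKM. Of the other markers in these lists, FLG, MYH1 and MYH2 had no entry in the gene table, as KRT15 and GNAQ of the wider lists, and the IDs of 5 epidermal and 3 muscle markers matched no row, so nothing can be said of their expression.

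**Figure D4:**
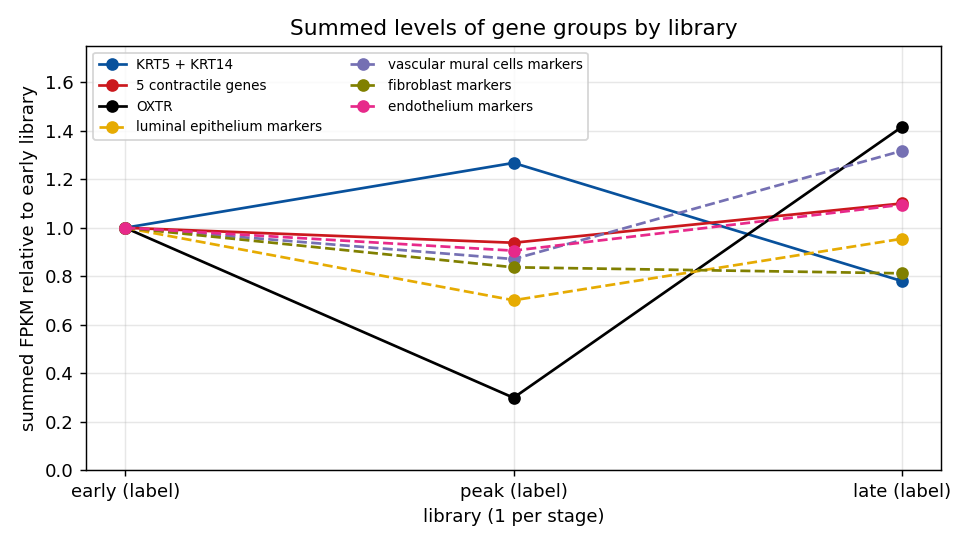
Summed FPKM of gene groups in the 3 libraries, each relative to its value in the early-labelled library, with solid lines for the basal keratins, the contractile genes and OXTR and dashed lines for markers of other cells (1 library per stage, no error bars). The 5 contractile genes stayed between 351 and 411 FPKM, KRT5 and KRT14 together had 83.2, 105 and 64.9 FPKM, and OXTR lay furthest below its early-labelled level, in the peak-labelled library. The luminal sum was lower there through ELF5, whereas 6 of its 10 markers were above their early-labelled level. The mural sum was lower there through RGS5, and 5 of its 10 markers were above their early-labelled level.

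By the distance between log2 ratios (peak over early and late over early), genes were ranked against the median of the 5 contractile genes. Nearest were MIEF1, PAPSS1, HECA, RSL24D1 and PRKDC, at distances of 0.003 to 0.011 among 6985 genes with at least 5 FPKM in each library. Taken ratio by ratio, the median joined -0.25 of ACTA2 for peak over early with 0.09 of TAGLN for late over early. It was the profile of none of the 5 genes, which ranged from -0.36 (CNN1) to 0.07 (TAGLN) and from 0.01 (ACTA2) to 0.35 (MYH11). It also lay between the quartiles of all genes of 1 FPKM or more in both ratios. These distances therefore do not show a likeness to the contractile genes, and they rest on 3 libraries. For OXTR, a search added after its values were seen gave PDE10A, MOCS1, RASEF, TSPAN6 and ABCG2 among 11087 genes with at least 1 FPKM in each library, at distances of 0.027 to 0.077. PDE10A, a cyclic nucleotide phosphodiesterase, had 9.22, 2.74 and 12.8 FPKM and ABCG2, a transporter that secretes vitamins into milk, had 392, 111 and 557 FPKM.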

How the data were processed

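RNA of mammary gland tissue was pooled from 5 Laoshan goats per stage and sequenced with a stranded kit as paired ends. After read trimming, the authors used TopHat2 2.0.9 for mapping, Cufflinks 2.1.1 and Cuffmerge for transcript assembly, and Cuffdiff for FPKM. The deposited table holds FPKM of 50041 loci in 1 column per library, assigned to stages by the sample labels. Its coordinates lie on scaffolds of an assembly it does not name. Among values of 7 digits, 95.7% to 99.3% ended in 5, as means of a pair of values would, and what was averaged is not given in the sources used here.

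Gene IDs were matched to symbols with the ARS1.2 gene table (14403 of 15274 loci with a single ID), and rows of one ID were summed. Of 102 entries in the wider lists, 87 had values. Ratios were taken from FPKM as deposited, with 0 set to 0.001, and a fold of at least 2 was counted. No test was run, since each stage has 1 library. The genes and lists were chosen with earlier results of these data known. From each list the text names up to 3 genes per direction and comparison with the largest ratios past 2-fold among those of 1 FPKM or more in each library, and the most abundant genes, of which 1 is not reported here. Counting was checked on simulated data with planted changes past the threshold and little noise. That is a check of the code and says nothing of the spread in these libraries. Alternatives were other folds, pseudocounts, a filter, other scalings, single rows and exchanged labels. Python 3.11.15, numpy 2.4.6, pandas 2.3.3 and matplotlib 3.10.9 were used.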

Additional observations from a re-analysis of the deposited data

How the results depend on the processing

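At a fold of 1.5, 2 of the 9 genes differed between peak-labelled and early-labelled and 5 between late-labelled and peak-labelled. At a fold of 4 these numbers were 0 and 1 (OXTR), and the share of all genes was not counted at that fold. The 3 wider lists together had 5, 3 and 11 genes past 2-fold in peak over early, late over early and late over peak, 17, 5 and 19 at a fold of 1.5, and 0, 1 and 1 at a fold of 4. A pseudocount of 1 left 3 in the first and 6 in the last comparison. Scaled to equal protein-coding sums, 2 of the 9 genes (KRT5 and TP63, both higher in the peak-labelled library) differed in peak over early and 3 in late over peak, where OXTR was joined by KRT5 and TP63, and the lists went from 4 higher and 1 lower to 23 higher and 0 lower in peak over early, and from 2 higher and 9 lower to 0 and 16 in late over peak. This scaling, under which the shares of all genes were not counted, moved the median of all genes to 0.75 and -0.57. Per FPKM of KRT8 and KRT18, which moved it to -0.65 and 0.41, 3 of the 9 genes (MYH11, CNN1 and OXTR) differed in late over peak, and the lists had 2 higher and 5 lower in peak over early and 5 and 5 in late over peak. With the peak and late labels exchanged, 0 genes differed in peak over early and 1 in late over early, and the log2 ratios of OXTR became 0.50 for peak over early and -2.24 for late over peak. A pseudocount of 0.1 and centring on the median changed the number of the 9 genes past 2-fold in none of the comparisons. A filter of 1 FPKM and the highest row per gene could not change that number. Each of the 9 genes was above 1 FPKM in every library and had a single row. The causes were not tested beyond the construction of each setting. The limit of these data is 1 pooled library per stage and unknown read numbers, which bears most on genes of few FPKM such as OXTR, MYOCD, CDH3 and NGFR. No replicate could be left out. No paired analysis was possible because a stage is 1 pool of goats.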

Other observations

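Within 100000 nt of OXTR on its scaffold, 3 other entries had values. SSUH2, a protein-coding gene, had 0.845, 0.192 and 0.570 FPKM in the early-labelled, peak-labelled and late-labelled libraries, so its lowest value also lay in the peak-labelled one. RAD18, which encodes a ubiquitin ligase of DNA repair, had 5.36, 3.88 and 5.93 FPKM. The unannotated locus XLOC_042066 had 2.13, 0.228 and 0.285 FPKM, high in the early-labelled library only. Values this low rest on an unknown number of reads.

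On the scaffold of KRT14, protein-coding genes without a symbol lay within 100000 nt. LOC102177275 had 40.7, 21.6 and 44.6 FPKM and LOC102176997 had 30.8, 26.1 and 25.1 FPKM in the early-labelled, peak-labelled and late-labelled libraries. LOC102179515 had 1.89, 48.1 and 0.410 FPKM, a log2 ratio of peak over early of 4.67. A further entry of this window, with a gene ID that is not in the gene table, had 130, 238 and 26.2 FPKM. Its log2 ratio of late over peak was -3.18. Which keratins these entries encode, if any, was not determined here.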
